A study of Mus musculus with 4 samples.

Results

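Chemokines are small secreted proteins that direct the migration of leukocytes, and their receptors are G protein-coupled receptors of the cell surface. The genes described here were those of the chemokine ligands and receptors other than the CXCR2 receptor and its neutrophil-attracting ligands Cxcl1, Cxcl2, Cxcl3 and Cxcl5. They were selected by symbol (Ccl, Cxcl, Ccr, Cxcr, Cx3c, Xcl, Xcr or Ackr followed by a number), which gave 57 genes on 61 lines among 23238 gene symbols. Of these, 54 had reads in at least 1 library, and 40 had 40 or more reads summed over the 4 libraries, the minimum for a comparison. In skin, keratinocytes, fibroblasts, vessels and resident macrophages make chemokines. Inflammatory ligands call monocytes, eosinophils and T cells out of the blood, homeostatic ligands position resident cells and guide dendritic cells into lymph vessels, and atypical receptors bind chemokines without classical signalling and so set how much ligand is left.

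Gene expression was measured by 3′ RNA sequencing in skin of adult C57BL/6 mice, with 1 library in each of 4 groups. The groups were Egr1-/- mice with house dust mite (HDM) cream, Egr1-/- naive mice, wild-type (WT) mice with HDM cream and WT naive mice. In the HDM groups 100 mg of cream was put on shaved neck skin and on the ears after barrier disruption with sodium dodecyl sulfate (SDS), 2 times a week for 3 weeks. Naive mice are labelled as given SDS, without HDM. EGR1 is a transcription factor induced by many stimuli, and by its title the study concerned EGR1 in keratinocytes and sensory innervation of the epidermis in atopic dermatitis. Sources used here do not give how the allele was disrupted or whether animals were pooled. Egr1 reads numbered 3494 in KO-labelled HDM and 3159 in KO-labelled naive, against 1174 in WT HDM and 1966 in WT naive. It was thus not lower in the libraries labelled KO. A 3′ tag outside the deleted part checks nothing, so the libraries are called KO-labelled.

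Recovered totals lay between 9444122 and 10130739 reads per library. The KO-labelled naive library stood apart by its missing genes. Of 1672 genes with a mean of 20 to 50 reads in the other libraries, 42.4% had no read there, against 3.48% to 7.36% of such genes in each of the others. Among the 40 chemokine genes kept, 11 had no read in that library, and none was at 0 in any other library. A 0 there was therefore not read as a low level, and no ratio with an interval is given against it. Calls and log2 differences that involve such a 0 depend on the 1 added to the scaled reads and are no measure of size. The HDM libraries also differed from the naive ones in sex-linked transcripts: the Y-linked gene Ddx3y had 1 read in each HDM library, against 2430 in KO-labelled naive and 1925 in WT naive, so HDM and this difference cannot be told apart. Summed salivary gland markers were 150 scaled reads in KO-labelled HDM, 75782 in KO-labelled naive, 731 for WT HDM and 710573 for WT naive. Cartilage markers summed to 59.1, 21010, 15308 and 26091 in the same order, and fibroblast markers to 52302, 378793, 71889 and 194257. The part of these tissues in the chemokine values was not tested.

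**Figure D1:**
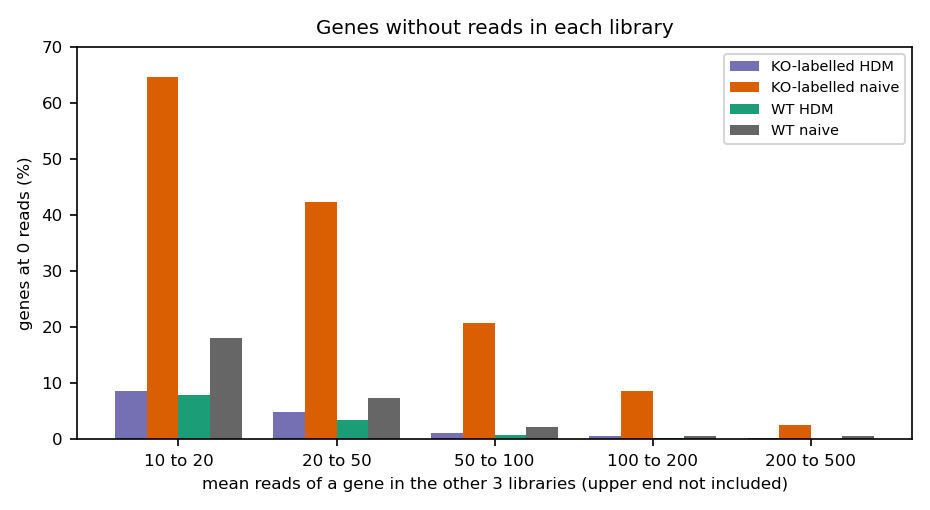
Share of genes without a read (y axis, percent) by the mean reads of the gene in the other libraries (x axis), with 1 bar per library. KO-labelled naive reaches 64.6% in the lowest class and 42.4% in the class of 20 to 50 reads, far above the other libraries.

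With 1 library per group, each difference compares 2 libraries and has no replicate check, and no p-value is given. A gene was called higher or lower when its deposited log2 values differed by 1 or more, that is 2-fold. The minimum of 40 reads sums all 4 libraries, so a gene can reach it through the library where it is high. Folds in the text are ratios of scaled reads with an exact 95% interval in parentheses (Clopper-Pearson), which covers counting error only. In bulk skin, fewer cells of a type and less RNA per cell cannot be told apart. In WT skin 15 of the 40 kept genes were higher with HDM, where 17.3% of all 14286 genes kept were, and 5 were lower, where 15.4% of all were. The median of the 40 was 0.59 on the log2 scale, against 0.03 over all genes. KO-labelled HDM against KO-labelled naive gave 14 higher and 12 lower (30.1% and 19.3% of all genes). Among the 29 with reads in the KO-labelled naive library, 3 were higher and 12 lower (20.7% and 21.2% of such genes), with a median of -0.66 against 0.00 over all genes with reads in both libraries. Leaving out genes at 0 in that library takes out higher calls by construction. The share over all genes is not matched for read level.

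**Figure D2:**
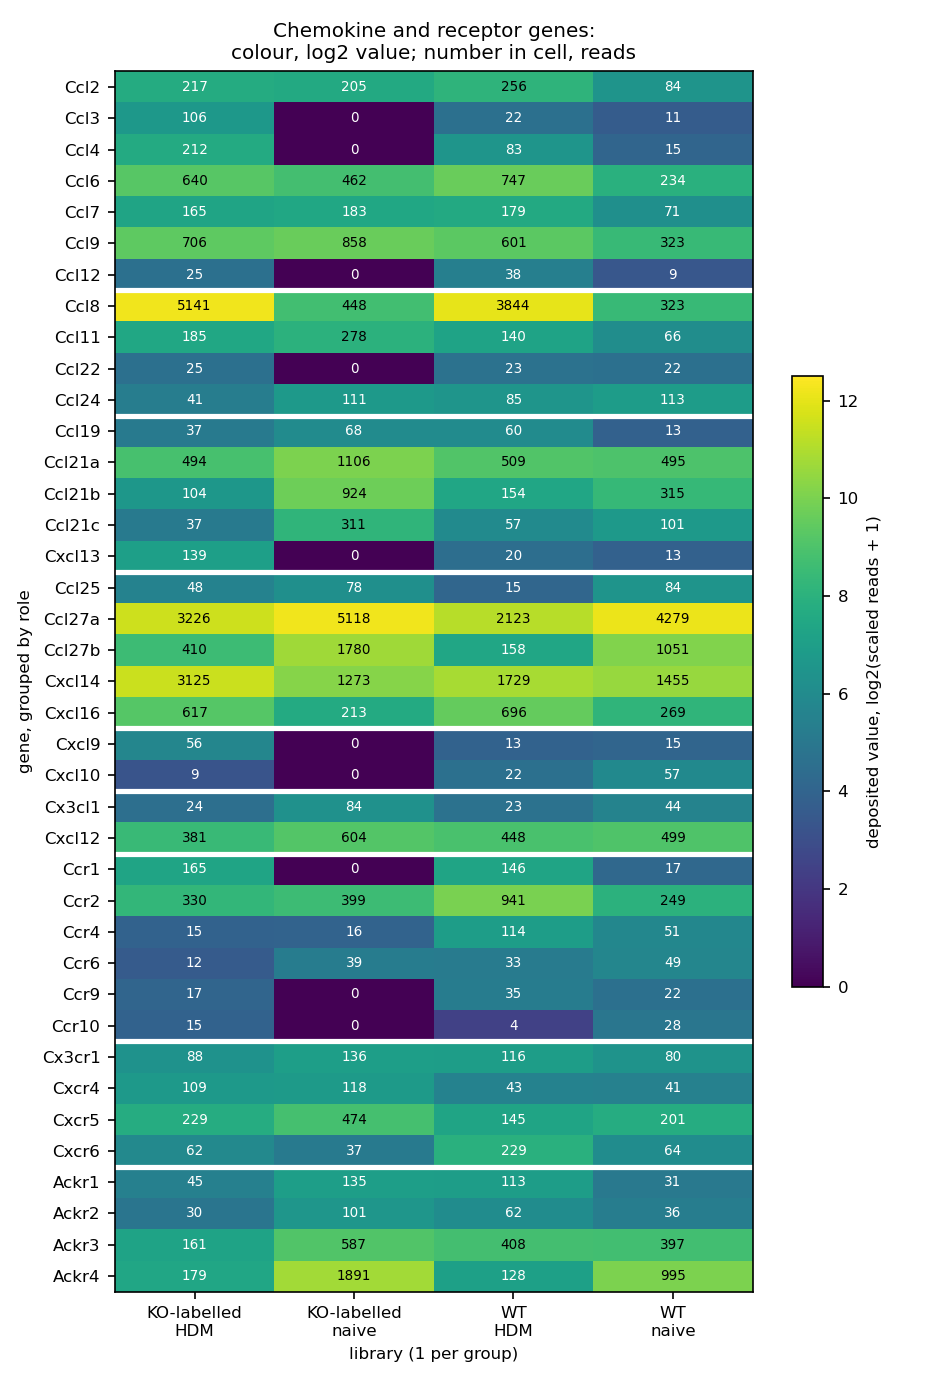
Deposited log2 value (colour) and recovered reads (number in each cell) of 39 of the 40 kept chemokine and receptor genes (rows, grouped by role) in the 4 libraries (columns, 1 per group). Ccl8 stands at 5141 and 3844 reads in the HDM libraries, against 448 and 323 in the naive ones, and 10 cells of the KO-labelled naive column are at 0.

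Ccl8 had the largest ratio of HDM to naive among the kept ligand genes with reads in every library, in both genotypes. In mice CCL8 is an agonist of CCR8, a receptor of T helper 2 cells. Ccl8 had 5141 reads in KO-labelled HDM, 448 in KO-labelled naive, 3844 for WT HDM and 323 for WT naive. Both HDM libraries were thus far above both naive ones, by 11.5-fold in KO-labelled skin (10.4 to 12.7) and 12.1-fold in WT skin (10.8 to 13.7). Between the HDM libraries Ccl8 was 1.16-fold higher in the KO-labelled one (1.12 to 1.21), and between the naive libraries 1.23-fold (1.06 to 1.42). Ccr8 itself had 0 reads in every library, which allows up to 3 reads in each.

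The neighbours of Ccl8 in the chromosome 11 cluster (Ccl2, Ccl7, Ccl11, Ccl12, Ccl8 and Ccl1, 82035571 to 82305690, GRCm38) showed another pattern. Ccl2, a CCR2 ligand that recruits monocytes, had 217 reads in KO-labelled HDM, 205 in KO-labelled naive, 256 for WT HDM and 84 for WT naive. The WT naive library was the low one. Ccl7, which binds CCR2 as well, had 165, 183, 179 and 71 reads in the same order. The eotaxin gene Ccl11, whose product binds CCR3 on eosinophils, had 185, 278, 140 and 66 reads. In WT skin with HDM, Ccl2 was 3.11-fold higher (2.42 to 4.03), Ccl7 2.57-fold (1.94 to 3.44) and Ccl11 2.17-fold (1.60 to 2.95). In KO-labelled skin the ratios of HDM to naive were 1.06 for Ccl2 (0.873 to 1.29), 0.904 for Ccl7 (0.728 to 1.12) and 0.668 for Ccl11 (0.551 to 0.807), none past 2-fold. The naive libraries themselves differed: KO-labelled over WT was 2.16-fold for Ccl2 (1.67 to 2.82), 2.28-fold for Ccl7 (1.73 to 3.05) and 3.73-fold for Ccl11 (2.85 to 4.96). Under HDM none of these genes passed 2-fold between genotypes. Ccl12, a further CCR2 ligand of mice, had 25, 0, 38 and 9 reads and was 4.31-fold higher with HDM in WT skin (2.05 to 10.1). Ccl1, a CCR8 ligand, had 3 reads in WT HDM and none elsewhere.

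The second chromosome 11 cluster (Ccl5, Ccl9, Ccl6, Ccl3 and Ccl4, 83525778 to 83664683) holds inflammatory ligands. Ccl6 and Ccl9, mouse ligands of CCR1 made by myeloid cells, were well measured. Ccl6 had 640 reads in KO-labelled HDM, 462 in KO-labelled naive, 747 for WT HDM and 234 for WT naive. Ccl9 had 706, 858, 601 and 323 reads in this order. For both, WT naive was again the lowest library. With HDM in WT skin Ccl6 was 3.26-fold higher (2.81 to 3.79), while Ccl9 was 1.90-fold higher (1.66 to 2.18) and did not pass 2-fold. In KO-labelled skin the ratios were 1.39 for Ccl6 (1.23 to 1.57) and 0.825 for Ccl9 (0.746 to 0.913). Ccl3 and Ccl4, neighbours that encode the macrophage inflammatory proteins MIP-1alpha and MIP-1beta, were highest in KO-labelled HDM. Ccl3 had 106 reads there, 0 in KO-labelled naive, 22 for WT HDM and 11 for WT naive, and Ccl4 had 212, 0, 83 and 15. Under HDM the KO-labelled library was 4.20-fold above WT for Ccl3 (2.63 to 6.98) and 2.22-fold for Ccl4 (1.72 to 2.90). In WT skin Ccl4 was 5.65-fold higher with HDM (3.24 to 10.5), and the ratio of Ccl3 was 2.04 (0.949 to 4.66), with a log2 difference of 0.97 that missed the rule. Ccl5, a chemokine made by T cells, had 2 to 11 reads in each library and stayed under the minimum.

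Of the 7 kept ligands in the group of Ccl2, Ccl3, Ccl4, Ccl5, Ccl6, Ccl7, Ccl9 and Ccl12, 5 were higher and 0 lower with HDM in WT skin, where 17.3% of all genes were higher and 15.4% lower. In that comparison 8 of 14 macrophage and monocyte markers were higher and 0 lower, with a median of 1.18. In the KO-labelled pair 0 of these markers were higher and 4 lower (median -0.05), where 30.1% and 19.3% of all genes were. Their summed level was 9951 scaled reads in KO-labelled HDM, 12259 in KO-labelled naive, 12077 for WT HDM and 5902 for WT naive, so WT naive was the lowest library here as well. Their part in the ligand values was not tested.

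The other ligands of CCR3 and CCR4 had at most 113 reads in any library. Ccl24, the eotaxin gene of macrophages, had 41 reads in KO-labelled HDM, 111 in KO-labelled naive, 85 for WT HDM and 113 for WT naive. KO-labelled HDM was the low library, 2.70-fold below KO-labelled naive (1.87 to 3.96) and 2.38-fold below WT HDM (1.62 to 3.55). In WT skin its ratio of HDM to naive was 0.768 (0.573 to 1.03). Ccl22, a CCR4 ligand of dendritic cells, had 25, 0, 23 and 22 reads in the same order, and its HDM to naive ratio in WT skin was 1.07 (0.569 to 2.01). Ccl17, the other CCR4 ligand and a marker of atopic dermatitis in patients, had 1, 7, 13 and 0 reads. It lay under the minimum. With the 0 in WT naive taken as 3 reads, its ratio of WT HDM to WT naive was 4.42. The exact counting interval, which uses the 0 itself, had a lower limit of 3.11. Ccl26 had no read in any library.

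The keratinocyte chemokine genes Ccl27a and Ccl27b were lower with HDM. CCL27 is a ligand of CCR10 that draws skin-homing T cells, and basal keratinocytes are its main source. Ccl27a had 3226 reads in KO-labelled HDM, 5118 in KO-labelled naive, 2123 for WT HDM and 4279 for WT naive. Ccl27b had 410, 1780, 158 and 1051 reads in the same order. Both HDM libraries lay below both naive ones for each gene. Ccl27b was 4.33-fold lower with HDM in KO-labelled skin (3.89 to 4.83) and 6.52-fold lower in WT skin (5.51 to 7.75). For Ccl27a these figures were 1.58-fold (1.51 to 1.65) and 1.97-fold (1.87 to 2.08), both short of 2-fold. Under HDM, the KO-labelled library was 2.26-fold above WT for Ccl27b (1.88 to 2.73) and 1.32-fold for Ccl27a (1.25 to 1.40). Basal keratinocyte markers had a median of 0.66 in KO-labelled skin with HDM (3 of 7 higher, 2 lower) and of 0.05 in WT skin (2 of 7 higher, 2 lower).

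Reads of the copies may be shared, since Ccl27a and Ccl27b differ at 3 of 363 bases of their reading frame and Ccl21a and Ccl21b at 2 of 402, in GENCODE transcripts. The differences are C177T, G297A and A343C from Ccl27a to Ccl27b, and T84A and C194T from Ccl21a to Ccl21b, counted from the first base of the start codon. Stretches around the first difference of each pair are printed to show how alike the copies are, with the differing base in capitals.
Ccl27a: actgcaggaggcCgatggggactgt
Ccl27b: actgcaggaggcTgatggggactgt
Ccl21a: tgatggagggggTcaggactgctgc
Ccl21b: tgatggagggggAcaggactgctgc
All 4 genes lie on chromosome 4, Ccl27a at 41769467 to 41774247 (minus strand) and Ccl27b at 42655251 to 42656005 (plus strand). Single values of these copies are uncertain where the counting could divide their reads. Ccl27a also ends within 300 bases of an exon of Il11ra1 on the opposite strand, which had 4709 to 8820 reads per library, and whether the counting used strand is not given in the sources used here.

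Other epithelial ligands went different ways. Cxcl16 encodes a membrane-bound ligand of CXCR6. It had 617 reads in KO-labelled HDM, 213 in KO-labelled naive, 696 for WT HDM and 269 for WT naive. With HDM it was 2.91-fold higher in KO-labelled skin (2.48 to 3.41) and 2.64-fold higher in WT skin (2.29 to 3.05). Cxcl16 ends within 300 bases of an exon of Med11 on the opposite strand. Cxcl14, a chemokine that resting epithelium makes constantly, had 3125, 1273, 1729 and 1455 reads in the same order. KO-labelled HDM was the high library, 2.46-fold above KO-labelled naive (2.31 to 2.63) and 1.57-fold above WT HDM (1.48 to 1.67), while WT HDM was 1.21-fold above WT naive (1.13 to 1.30). Ccl25, a CCR9 ligand known from thymus and gut, had 48, 78, 15 and 84 reads, and WT HDM was the low library, 5.49-fold below WT naive (3.14 to 10.2). KO-labelled HDM was 2.79-fold above WT HDM for this gene (1.53 to 5.36). Ccl20, the CCR6 ligand that keratinocytes make under type 17 cytokines, lay under the minimum with 3 reads in KO-labelled HDM, 29 in WT HDM and 0 in both naive libraries. With the 0 in WT naive taken as 3 reads, its ratio of WT HDM to WT naive was 9.87. The exact counting interval, which uses the 0 itself, had a lower limit of 7.53. Ccl20 was 11.1-fold lower in KO-labelled HDM than in WT HDM (3.44 to 56.9). The mucosal ligand genes Ccl28, Cxcl15 and Cxcl17 had at most 10 reads in any library.

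The CCL21 genes were highest in KO-labelled naive skin. CCL21, made by lymphatic endothelium, and CCL19 bind CCR7 and lead dendritic cells to lymph nodes. Ccl21a had 494 reads in KO-labelled HDM, 1106 in KO-labelled naive, 509 for WT HDM and 495 for WT naive. Ccl21b had 104, 924, 154 and 315 reads, and Ccl21c 37, 311, 57 and 101, in the same order. With HDM in KO-labelled skin Ccl21a was 2.23-fold lower (2.01 to 2.49), Ccl21b 8.86-fold (7.23 to 11.0) and Ccl21c 8.38-fold (5.95 to 12.1). In WT skin Ccl21b was 2.00-fold lower (1.65 to 2.45) and Ccl21c 1.74-fold (1.24 to 2.45). Neither passed the rule, Ccl21b with a log2 difference of -0.998, and the ratio of Ccl21a was 1.05 (0.926 to 1.19). Ccl19 had 37, 68, 60 and 13 reads, with WT naive the lowest library, and was 4.71-fold higher with HDM in WT skin (2.56 to 9.36). Reads of Ccl19, Ccl21a and Ccl21b are sums over 2, 2 and 3 lines of the same symbol. Whether a read was counted on more than 1 line is not known, and if so these intervals are too narrow. The summed level of lymphatic endothelial markers was 2428 scaled reads in KO-labelled HDM, 2547 in KO-labelled naive, 3714 for WT HDM and 1817 for WT naive. Single markers did not all follow this sum. In KO-labelled HDM Mmrn1 had 73 reads against 433 in KO-labelled naive, Reln 68 against 216 and Lyve1 518 against 987. Pdpn went the other way with 1835 against 1004, and Flt4 had 92 against 82. The median of these 5 was -0.92 for that pair and 0.88 for the WT pair. The part of lymphatic endothelium in the CCL21 values was not tested. Cxcl13, a CXCR5 ligand that attracts B cells, had 139 reads in KO-labelled HDM, 0 in KO-labelled naive, 20 for WT HDM and 13 for WT naive. KO-labelled HDM was 6.05-fold above WT HDM for this gene (3.77 to 10.2).

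The CXCR3 ligands, which interferon gamma induces and which attract T helper 1 cells, had few reads. Cxcl9 had 56 reads in KO-labelled HDM, 0 in KO-labelled naive, 13 for WT HDM and 15 for WT naive. Cxcl10 had 9, 0, 22 and 57 reads in the same order. Under HDM the KO-labelled library was thus 3.75-fold above WT for Cxcl9 (2.03 to 7.48) and 2.81-fold below it for Cxcl10 (1.24 to 6.93), in opposite directions. In WT skin with HDM, Cxcl10 was 2.54-fold lower (1.53 to 4.36), and the ratio of Cxcl9 was 0.885 (0.387 to 1.99). Cxcl11 had 1 to 10 reads per library. Cxcl10 ends within 300 bases of an exon of Art3 on the opposite strand.

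Cxcl12, which holds leukocytes and progenitors in place through CXCR4, passed 2-fold in no comparison. It had 381 reads in KO-labelled HDM, 604 in KO-labelled naive, 448 for WT HDM and 499 for WT naive. KO-labelled naive was the highest library and KO-labelled HDM the lowest. Cx3cl1, a membrane-bound chemokine of endothelium and epithelium, had 24, 84, 23 and 44 reads in the same order. Its HDM libraries lay below the naive ones, by 3.49-fold in KO-labelled skin (2.19 to 5.74) and 1.87-fold in WT skin (1.11 to 3.25). Xcl1, made by T and natural killer cells, had 8, 0, 0 and 17 reads and stayed under the minimum.

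**Figure D3:**
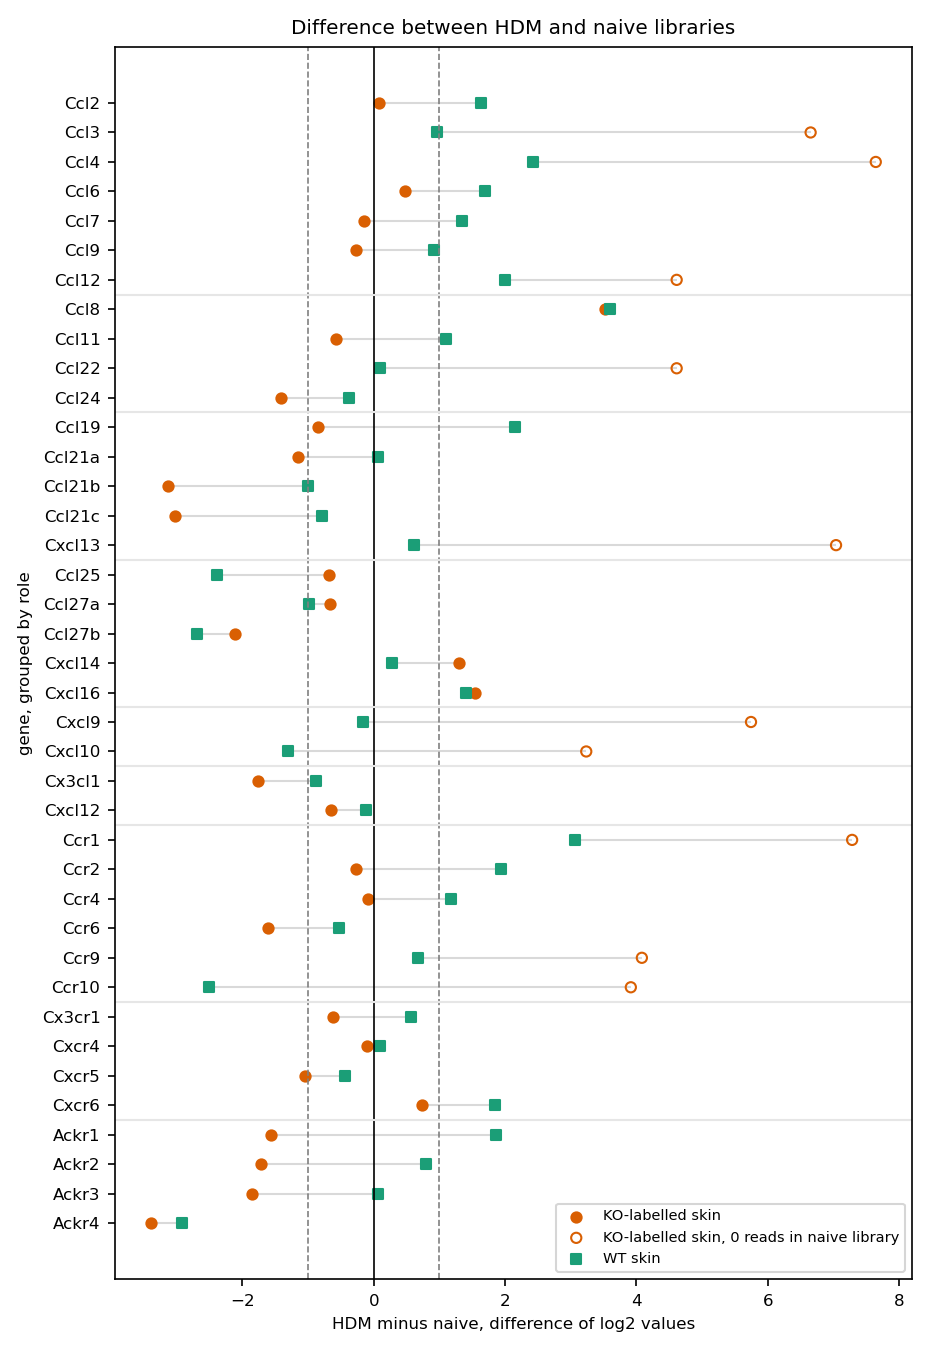
Difference of deposited log2 values between the HDM and the naive library (x axis) for 39 of the 40 kept genes (rows, grouped by role), in KO-labelled skin (circles; open where the naive library had 0 reads) and WT skin (squares), with dashed lines at 2-fold. Ccl8, Cxcl16, Ccl27b and Ackr4 pass a dashed line on the same side in both genotypes with reads in every library, while the Ccl2, Ccl7 and Ccr2 circles sit near 0.

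Several receptor genes of a chromosome 9 cluster were lower in KO-labelled HDM than in WT HDM. Ccr9, Cxcr6, Xcr1, Ccr1, Ccr1l1, Ccr3 and Ccr2 lie in this cluster. Ccr2, the receptor of inflammatory monocytes, had 330 reads in KO-labelled HDM, 399 in KO-labelled naive, 941 for WT HDM and 249 for WT naive. WT HDM was the high library, 3.86-fold above WT naive (3.35 to 4.45), and KO-labelled HDM was 3.27-fold below WT HDM (2.89 to 3.72). Cxcr6, the CXCL16 receptor of tissue-resident T cells, had 62, 37, 229 and 64 reads in the same order. It too was highest in WT HDM, 3.65-fold above WT naive (2.76 to 4.90), and it was 4.24-fold lower in KO-labelled HDM than in WT HDM (3.19 to 5.71). Ccr1, a receptor of neutrophils and monocytes, differed from these neighbours. It had 165, 0, 146 and 17 reads, 8.77-fold higher with HDM in WT skin (5.29 to 15.5) and with a ratio of 0.984 between the HDM libraries (0.783 to 1.24). Neutrophil markers summed to 76968 scaled reads in KO-labelled HDM, 37.4 in KO-labelled naive, 199507 for WT HDM and 704 for WT naive. S100a8 and S100a9 made up most of the HDM sums, with 48717 and 32680 reads in KO-labelled HDM and 121592 and 63027 in WT HDM. Between the HDM libraries the 9 kept neutrophil markers had a median of -0.15. In the KO-labelled one 1 was higher and 2 were lower, where 5.73% and 7.46% of all genes were. The part of neutrophils in the Ccr1 values was not tested. Ccr9, the CCL25 receptor, had 17, 0, 35 and 22 reads and was 2.36-fold lower in KO-labelled HDM than in WT HDM (1.29 to 4.50). Xcr1, a receptor of cross-presenting dendritic cells, had 16 and 22 reads in KO-labelled HDM and WT HDM and none in the naive libraries. With the 0 in WT naive taken as 3 reads, its ratio of WT HDM to WT naive was 7.49. The exact counting interval, which uses the 0 itself, had a lower limit of 5.59. Ccr3, the eosinophil receptor of eotaxins, had 6 reads in WT HDM and none elsewhere, and Ccr1l1 had none at all.

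Ccr4, the receptor of skin-homing T helper 2 cells for CCL17 and CCL22, had 15 reads in KO-labelled HDM, 16 in KO-labelled naive, 114 for WT HDM and 51 for WT naive. Both KO-labelled libraries were below both WT ones, by 8.73-fold under HDM (5.07 to 16.1) and 3.60-fold in naive skin (2.02 to 6.76). In WT skin Ccr4 was 2.28-fold higher with HDM (1.63 to 3.24), and in KO-labelled skin the ratio was 0.940 (0.433 to 2.03). Ccr6, the CCL20 receptor of type 17 cells, had 12, 39, 33 and 49 reads in the same order, with KO-labelled HDM 3.16-fold below WT HDM (1.59 to 6.71). It was 3.24-fold below KO-labelled naive (1.66 to 6.80). Ccr10, the receptor of CCL27, had 15, 0, 4 and 28 reads, and WT HDM was 6.86-fold below WT naive (2.40 to 26.9). Between the HDM libraries the KO-labelled one was 3.27-fold above WT for Ccr10, with a wide interval (1.04 to 13.5). Ccr7, the receptor of CCL19 and CCL21, had 16, 0, 2 and 0 reads, under the minimum for a comparison.

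Under HDM, 5 of 7 kept CC receptors were lower and 1 was higher in the KO-labelled library, where 7.46% of all genes were lower and 5.73% higher (19.5% and 16.2% of genes with under 200 summed reads). In the same comparison 3 of 12 T cell and innate lymphoid markers were lower and 0 higher (median -0.32). Macrophage and monocyte markers had 0 of 14 lower and 0 higher (median -0.45), and dendritic and Langerhans cell markers 5 of 11 lower (median -0.90). Both kept eosinophil markers were lower as well, on few reads. Ear1 had 6 reads in KO-labelled HDM and 56 in WT HDM, and Il5ra 0 and 13. Siglecf, under the minimum, went the other way with 15 and 6 reads, and Prg2 and Epx had 0 reads in every library. The part of these cell types in the receptor values was not tested.

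Receptors outside the CC class included a gene that was higher in both KO-labelled libraries. Cxcr4, the CXCL12 receptor, had 109 reads in KO-labelled HDM, 118 in KO-labelled naive, 43 for WT HDM and 41 for WT naive. KO-labelled skin was 2.21-fold above WT under HDM (1.54 to 3.22) and 2.55-fold in naive skin (1.77 to 3.73), and the ratios of HDM to naive were 0.927 in KO-labelled skin (0.708 to 1.21) and 1.07 in WT skin (0.682 to 1.68). Cx3cr1, the fractalkine receptor of monocytes, macrophages and Langerhans cell precursors, had 88, 136, 116 and 80 reads in the same order and passed 2-fold in no comparison. Cxcr5, the B cell receptor of CXCL13, had 229, 474, 145 and 201 reads, although each of the 6 B cell and plasma cell markers stayed under the minimum. It overlaps Bcl9l on the opposite strand of chromosome 9, with an exon of Bcl9l within 300 bases of its 3′ end. Bcl9l had 469, 379, 632 and 259 reads, and without strand the reads of both genes cannot be told apart. Cxcr1 and Cxcr3 had at most 5 reads in any library.

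Atypical receptors bind chemokines without classical signalling. Under HDM 3 of the 4 were lower and 0 higher in the KO-labelled library, where 7.46% of all genes were lower and 5.73% higher. Of genes with 200 or more summed reads 4.87% were lower and 3.47% higher. Ackr1, which carries chemokines across venules and red cells, had 45 reads in KO-labelled HDM, 135 in KO-labelled naive, 113 for WT HDM and 31 for WT naive. Ackr2, a scavenger of inflammatory CC chemokines, had 30, 101, 62 and 36 reads, and Ackr3, a scavenger of CXCL12, had 161, 587, 408 and 397. KO-labelled HDM was the low or next to lowest library for each. It was below WT HDM by 2.88-fold for Ackr1 (2.02 to 4.17), 2.37-fold for Ackr2 (1.51 to 3.80) and 2.91-fold for Ackr3 (2.42 to 3.51). Below KO-labelled naive it was by 2.99-fold (2.12 to 4.29), 3.36-fold (2.21 to 5.23) and 3.63-fold (3.05 to 4.35). In WT skin Ackr1 was 3.72-fold higher with HDM (2.48 to 5.73), Ackr2 1.76-fold (1.15 to 2.73), and Ackr3 had a ratio of 1.05 (0.911 to 1.21). Blood endothelial markers had a median of 0.19 between the HDM libraries (0 of 11 in either direction). Lymphatic ones had a median of -1.27 (3 of 5 lower, where 7.46% of all genes were).

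Ackr4, a scavenger of CCL19, CCL21 and CCL25, was the receptor gene with a large difference in both genotypes. It had 179 reads in KO-labelled HDM, 1891 in KO-labelled naive, 128 for WT HDM and 995 for WT naive, so that both HDM libraries were far below both naive ones. With HDM it was 10.5-fold lower in KO-labelled skin (9.03 to 12.3) and 7.61-fold lower in WT skin (6.33 to 9.23). Between the HDM libraries the ratio of KO-labelled to WT was 1.22 (0.965 to 1.54). Ackr4 overlaps Acad11, which is transcribed on the opposite strand and has an exon within 300 bases of the 3′ end of Ackr4. Acad11 had 496, 1233, 350 and 631 reads in the 4 libraries in the same order.

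Genes that differed the same way in comparisons that share no library were counted, beside the share over all genes. HDM was above naive by 2-fold in both genotypes for 6 of 40 genes (10.0% of all genes), of which Ccl8 and Cxcl16 had reads in KO-labelled naive and the others, Ccl4, Ccl12 and Ccr1 among them, had none there. HDM was below naive in both for Ackr4 and Ccl27b (7.36% of all genes). KO-labelled was above WT in naive and HDM skin for Cxcr4 (1.43% of all genes) and below it in both for 4 genes, Ccr4, Ccr9 and Cxcl10 among them (2.89%), of which Ccr4 had reads in KO-labelled naive. Among genes with reads in KO-labelled naive, 2 of 29 were above with HDM and 2 of 29 below in both genotypes (6.42% and 8.40% of such genes), and 1 of 29 was above and 1 of 29 below with the KO label in both treatments (1.63% and 1.21%).

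KO-labelled against WT under HDM gave 8 genes higher and 11 lower of 40, where 5.73% of all genes were higher and 7.46% lower. Among the higher ones, Ccl3, Ccr10, Cxcl9 and Cxcl13 reached the minimum only with their KO-labelled HDM reads. Among the lower ones, Ccr9 reached it only with its WT HDM reads. These calls follow in part from the filter, which was the same for all genes. Of genes with under 200 summed reads 16.2% were higher and 19.5% lower, and the 40 had a median of 371 summed reads, against 888 over all genes kept. Of the 27 with 200 or more summed reads, 4 were higher (Ccl4, Ccl25, Ccl27b and Cxcr4) and 6 lower (Ackr1, Ackr2, Ackr3, Ccl24, Ccr2 and Cxcr6), where 3.47% and 4.87% of all such genes were. In the other comparisons of these 27 genes, 11 were higher and 3 lower with HDM in WT skin (15.5% and 12.8% of such genes), and 5 higher and 10 lower with HDM in KO-labelled skin (23.9% and 18.0%). KO-labelled naive against WT naive gave 10 higher and 2 lower (13.4% and 19.0%). Exact counting intervals left out 1 for each of the 8 higher and 11 lower under HDM. Of the kept cartilage markers 6 of 6 were lower in KO-labelled HDM than in WT HDM, with a median of -6.33. The part of this tissue was not tested.

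KO-labelled against WT in naive skin gave 11 higher and 12 lower of 40 (14.9% and 25.8% of all genes). Of the 12 lower, 11 were the genes at 0 in KO-labelled naive, and Ccr4 was the other. Among the 29 with reads there, 11 were higher and 1 lower, where 16.2% and 16.6% of such genes were, with a median of 0.75 against 0.00. Asking for reads in KO-labelled naive takes out genes low in that library, so this split leans upward by construction. Loss of genes there rose as reads fell, and the 40 had a median of 371 summed reads, against 888 over all genes kept. The shares are thus not matched for level. The higher ones were Ccl2, Ccl7, Ccl9, Ccl11, Ccl19, Ccl21b, Ccl21c, Cxcr4, Cxcr5, Ackr1 and Ackr2. In this comparison 5 of 14 macrophage markers were higher and 0 lower (median 0.87), and 4 of 8 fibroblast markers were higher and 0 lower (median 1.05). Their part was not tested.

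**Figure D4:**
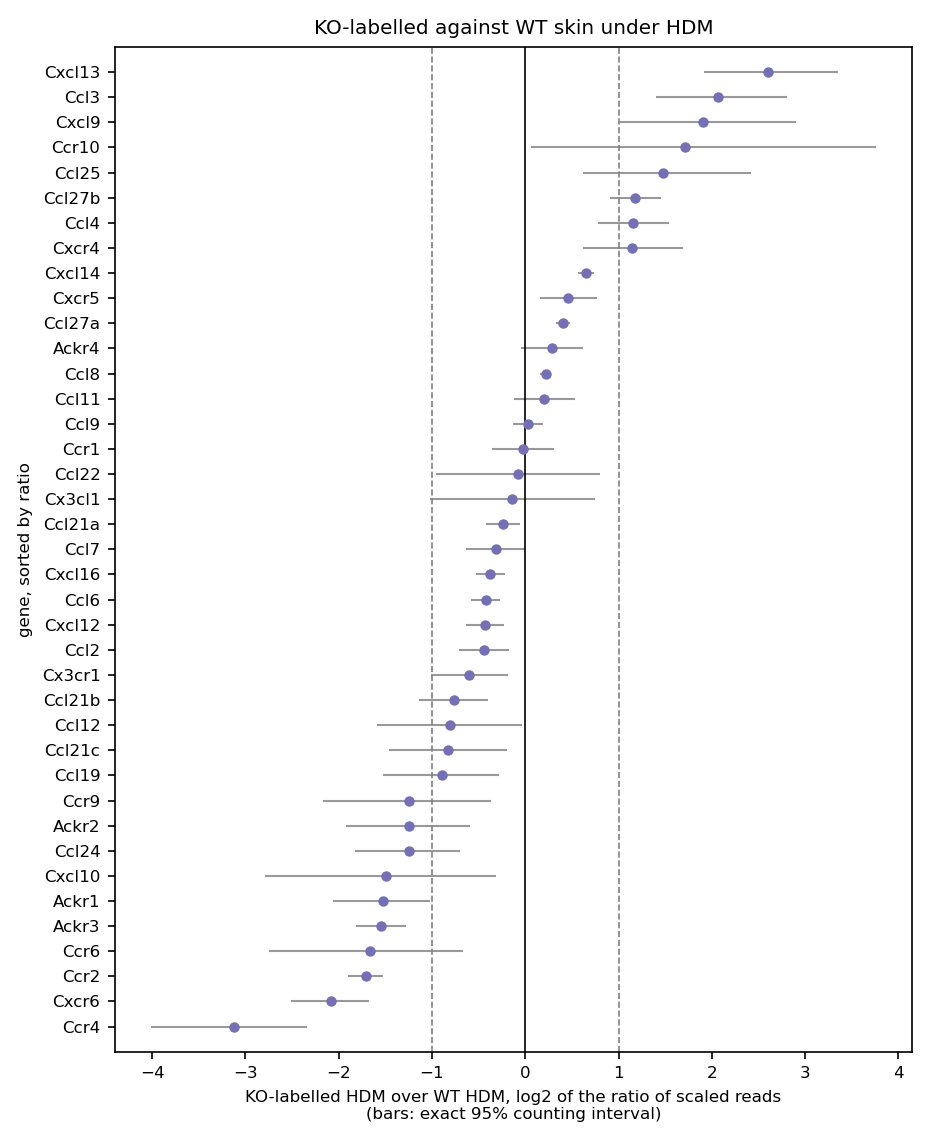
Ratio of KO-labelled HDM to WT HDM (x axis, log2 of scaled reads) for 39 of the 40 kept genes (rows, sorted), with exact 95% counting intervals as bars and dashed lines at 2-fold. Ccr4 is the lowest at 8.73-fold below WT and Cxcl13 the highest at 6.05-fold above it. Cxcl13 reached the minimum of 40 summed reads only with its KO-labelled HDM reads.

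Genes that act below or beside the receptors were described from 4 lists. Their counts stand beside 17.3% higher and 15.4% lower of all genes with HDM in WT skin, and 30.1% and 19.3% in KO-labelled skin, and several lie near these shares. Among 17 genes of G protein signalling, 7 were higher and 0 lower with HDM in WT skin, and 3 higher and 2 lower in KO-labelled skin. Was, an actin regulator of blood cells, was the highest of them in both genotypes, with 23 reads in KO-labelled HDM, 1 in KO-labelled naive, 35 for WT HDM and 0 for WT naive. Gng2, a G protein subunit gene, was the lowest in both, with log2 differences of -1.67 in KO-labelled and -0.57 in WT skin. Of 13 adhesion and extravasation genes, 8 were higher and 0 lower in WT skin, and 6 higher and 4 lower in KO-labelled skin. The selectin gene Selp of activated endothelium had 103, 0, 229 and 11 reads in the order of libraries given for Was, and the related Sele had 111, 0, 12 and 0. The integrin genes Itga4 and Itgal were the lowest, at -0.77 in WT and -2.32 in KO-labelled skin.

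With HDM, receptor desensitisation genes gave 1 of 11 higher and 0 lower in WT skin and 5 higher and 1 lower in the KO-labelled pair. Rgs1, which ends G protein signals in leukocytes, was the highest in WT skin with 38 reads in HDM and 0 in naive skin, and Arrb2 the lowest at -0.49. In KO-labelled skin Arrb2 had the highest log2 difference, taken against a 0, with 87 reads in HDM and 0 in naive skin, and the receptor kinase gene Grk5 the lowest at -2.27. Of 8 kept protease and proteoglycan genes that cut or bind chemokines, 2 were higher and 0 lower in WT skin, and 2 higher and 3 lower in KO-labelled skin. Dpp4, a protease that trims chemokine ends, was the highest in WT skin at 1.27, and Adam10, which sheds CXCL16 and CX3CL1, the lowest at -0.42. In KO-labelled skin the gelatinase gene Mmp9 had 113 reads in HDM and 0 in naive skin, and Mmp2 was the lowest at -2.59. In 3 of the 4 lists some genes were at 0 in KO-labelled naive (4, 4 and 3 genes).

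The difference of the HDM response between genotypes, the KO-labelled difference minus the WT difference, was 1 or more on the log2 scale for 13 of the 40 genes and -1 or less for 18 (28.1% and 18.2% of all genes). Among the 29 with reads in every library the numbers were 2 and 18 (19.2% and 19.3% of such genes), with a median of -1.18 against 0.00. Leaving out genes at 0 in KO-labelled naive takes out genes with a KO-labelled response above the WT one, so this split leans downward by construction. KO-labelled HDM against WT naive, a pair that differs in both label and treatment, gave 14 higher and 11 lower of 40 (15.5% and 14.3% of all genes).

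Promoters were searched for 4 short motifs on both strands, in windows from 250 bases before to 50 after the start site (RefSeq, GRCm38.p6), of which 37 belong to 30 of the kept genes. The EGR1 motif GCGTGGGCG was in 0 of the 37, against 0.612% of 32851 promoters. GGGNNTTTC, a short form of the NF-kB motif, was in 4 (10.8%, against 4.36%), and the interferon response motif GAAANNGAA in 6 (16.2%, against 8.56%). The STAT6 motif, TTC and GAA with 4 free bases between them, was in 0 (6.95% of all). A match is a description of letters, not a site of binding. The promoters of Ccl8 and Ackr4 are printed because these genes had the large differences shared by both genotypes, and that of Cxcl9 because it held 2 of the motifs, shown in capitals.
Ccl8, chr11:82114935-82115234, plus strand: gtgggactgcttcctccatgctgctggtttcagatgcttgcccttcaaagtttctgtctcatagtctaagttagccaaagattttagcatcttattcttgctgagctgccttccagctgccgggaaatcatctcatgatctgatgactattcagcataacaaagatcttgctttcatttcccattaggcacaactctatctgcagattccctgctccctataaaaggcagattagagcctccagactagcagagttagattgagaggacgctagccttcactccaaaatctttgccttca
Ackr4, chr9:104126594-104126893, minus strand: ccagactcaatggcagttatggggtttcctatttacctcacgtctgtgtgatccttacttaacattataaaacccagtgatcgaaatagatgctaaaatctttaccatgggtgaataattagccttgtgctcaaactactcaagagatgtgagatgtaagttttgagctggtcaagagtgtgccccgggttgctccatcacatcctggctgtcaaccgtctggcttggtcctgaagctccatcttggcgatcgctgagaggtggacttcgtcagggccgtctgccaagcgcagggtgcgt
Cxcl9, chr5:92328030-92328329, minus strand: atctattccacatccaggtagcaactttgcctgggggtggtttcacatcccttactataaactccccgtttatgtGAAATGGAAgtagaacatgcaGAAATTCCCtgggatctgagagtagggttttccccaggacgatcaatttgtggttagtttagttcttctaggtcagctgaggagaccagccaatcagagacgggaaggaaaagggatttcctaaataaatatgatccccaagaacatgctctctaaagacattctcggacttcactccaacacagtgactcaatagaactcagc
The first capitals in Cxcl9 are the interferon response motif, from base -175 relative to the start site, and the second the NF-kB motif on the opposite strand, from base -154. Ccl8 and Ackr4 hold none of the 4 motifs in this window.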

How the data were processed

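QuantSeq 3′ libraries were made from 500 ng of Trizol-extracted RNA, per the labels' protocols. Bowtie2, bedtools and mm10 are named without version or role, per the submitters' processing notes. The sources used here name no counting method, strand setting, annotation, filter or normalization. The authors deposited 1 table of log2 values with 3 decimals per library. With the log undone and 1 taken off, low numbers were integer multiples of 1 step per library (0.939, 0.936, 1.08 and 1.06 in KO-labelled HDM, KO-labelled naive, WT HDM and WT naive), which makes each value log2(scaled reads + 1). Division by the step gave reads. Of genes with up to 200 reads, 95.4% to 99.0% were whole within 0.1 read, and higher numbers are approximate. The deposited scaling differed from TMM factors computed on these reads by at most 0.0619%. WT tables list 1123 (HDM) and 2112 (naive) lines between 0 and 0.5, taken as 0 reads, and KO tables none.

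Lines of the same symbol were summed (35 symbols, 79 lines). Genes with 40 or more summed reads were compared, by the size rule of 2-fold and without p-values, since each group has 1 library. Intervals and the limit of 3 reads for a count of 0 cover counting error, as reads without molecular identifiers are not molecules. Nothing says whether a library is 1 animal. Members and lists were chosen with earlier results of these data known. Genes named: kept members past 2-fold in any comparison or with 200 reads in any library, and the extremes of the pathway lists with HDM; other genes, and the rule on differences shared between comparisons, were chosen after their values were seen. Alternatives were scaling, filter, pseudocount and size. Recovery and intervals were tested on simulated data. Positions are GENCODE M21 (GRCm38; 56 of 57 genes, Ccl21c had none). Software was Python 3.11.15, numpy 2.4.6, pandas 2.3.3 and scipy 1.17.1. Counts of kept genes include 1 gene whose values are not reported here.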

Additional observations from a re-analysis of the deposited data

Results flagged for a closer look

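Differences of the HDM response between genotypes were not tested, since each group holds 1 library. Ackr1 stood out because it was past 2-fold in opposite directions, lower with HDM in KO-labelled skin and higher in WT skin, so that the KO-labelled response minus the WT response was -3.42 on the log2 scale. Ccr10 stood out for the opposite signs of its 2 differences, with a value of 6.43, and Cxcl10 likewise, with 4.54. Both had 0 reads in the KO-labelled naive library, where many genes of their level were missing, so the sizes of these values depend on the 1 added to the scaled reads.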

How the results depend on the processing

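No paired analysis was possible because each group has 1 library. Of 90 counts of called genes under the alternatives, 74 stayed within 1.5 times the count given. With no filter (57 genes), 25 were higher and 9 lower with HDM in WT skin, and 18 were lower in KO-labelled HDM than in WT HDM. At 200 or more summed reads (27 genes), 3 were lower with HDM in WT skin, 5 higher with HDM in KO-labelled skin, 2 lower in KO-labelled than WT naive skin, and 4 higher and 6 lower in KO-labelled than WT skin under HDM. With a 4-fold rule, 4 were higher with HDM in WT skin, 4 lower with HDM in KO-labelled skin, 1 higher in KO-labelled than WT naive skin, and 2 higher and 2 lower in KO-labelled than WT skin under HDM. The filter and the 4-fold rule test fewer genes or ask for more by construction. Without the 11 genes at 0 in KO-labelled naive, an alternative added after seeing the data, 3 were higher with HDM in KO-labelled skin, 1 was lower in KO-labelled than WT naive skin, and 2 had a KO-labelled response above the WT response. Leaving these genes out takes out such calls by construction. With WT naive in place of KO-labelled naive, also added later, 14 were higher and 11 lower in KO-labelled HDM. Of 780 recomputed differences of 39 named genes under other scalings and pseudocounts, 0 reversed and 759 stayed within their counting interval or within 0.05. A reversal was counted only for differences of 1 or more. The scalings differed from the deposited one by at most 4.78%, and the pseudocounts do not swap which library is higher. The 0 was thus fixed in advance and is no check. Differences of genes under 40 summed reads were often not detectable at this depth.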
